A study of Drosophila melanogaster with 6 samples.

Results

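The 9 genes described here make, assemble and deacetylate chitin, and they were chosen by name: kkv, mmy, knk, rtv, serp, verm, Cda4, Cda5 and Cda9, out of 17558 gene identifiers in the count table. Earlier results of these data were known when they were chosen. All 9 were found by symbol in the annotation of dm6, and all 9 passed the filter on low counts. RNA was sequenced from adult males injected 12 h earlier with the bacterium M. luteus, a Gram-positive trigger of Toll signalling, in 3 libraries of CR11538-overexpressing flies (Gal80ts; Tub> CR11538) and 3 of control flies (Gal80ts; Tub-Gal4/P{CaryP}attP40). Both genotypes carry the tubulin-driven activator Gal4 and the heat-sensitive repressor Gal80ts, and the control has the attP40 landing site in place of the transgene. In the study the transgenic flies were reared cool and moved to the warm for a day, which inactivates the repressor and turns lncRNA-CR11538 on in nearly all tissues, since the tubulin promoter is broadly active. Its methods do not say separately whether control flies had the same warm day. There is no uninfected library among the 6, so every difference below lies between genotypes of infected flies. The number of flies behind a library was not found in the labels or methods, and the labels do not say what separates the libraries of a genotype. The study's methods describe replicates as biological and independent for its experiments in general, without naming the sequencing, and p-values measure the spread between these libraries.

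Chitin, a polymer of N-acetylglucosamine, is the fibre of the insect cuticle, of the lining of the tracheae, and of the peritrophic matrix of the midgut. The cell makes the activated sugar UDP-N-acetylglucosamine, and a chitin synthase in the apical membrane polymerises it and extrudes the chain. Outside the cell other proteins protect and order the new fibrils, and chitin deacetylases remove acetyl groups from some of the sugars, which changes how the fibrils bind proteins and pack. In the Drosophila embryo, kkv, mmy, knk, rtv, serp and verm are known from mutants with a weak cuticle or misshapen tracheal tubes.

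lncRNA-CR11538 itself was counted 2291, 3358 and 3312 times in the CR11538-overexpressing libraries and 5, 2 and 5 times in the control libraries, which fits the labels. Libraries held 17040432 to 19652500 counts. The male transcripts lncRNA:roX1, Mst98Ca, Acp36DE and betaTub85D were high in all 6 libraries, in keeping with the labelled sex. Of 13159 genes tested with edgeR's quasi-likelihood test, 29.2% passed an adjusted p (Benjamini-Hochberg) of 0.05, 15% of all being higher and 14.2% lower in the CR11538-overexpressing flies. The median log2 fold change was -0.01. In what follows, higher and lower mean past this adjusted p at any fold change, and normalized counts are counts scaled by the TMM method. The counts of genes higher and lower in each list below are to be read beside these shares of 15% and 14.2%.

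The chitin synthase gene and 4 of the 5 deacetylase genes were higher in the CR11538-overexpressing flies, each by more than 2-fold. kkv, serp, verm, Cda4 and Cda5 rose by log2 fold changes from 1.28 to 2.43. The precursor gene mmy and the assembly genes knk and rtv did not pass the test, nor did Cda9. Of the 9 genes, 5 were thus higher and 0 were lower, where 15% of all tested genes were higher and 3.43% were higher by more than 2-fold. In the same 5 genes all 3 CR11538-overexpressing libraries lay above all 3 controls, as in 21.8% of all tested genes. The median log2 fold change of the 9 was 1.28. Because the 9 were chosen with earlier results of these data known, these shares are a description and not a test of the group. In RNA from whole flies, more cells that express a gene and more RNA per cell cannot be told apart.

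**Figure D1:**
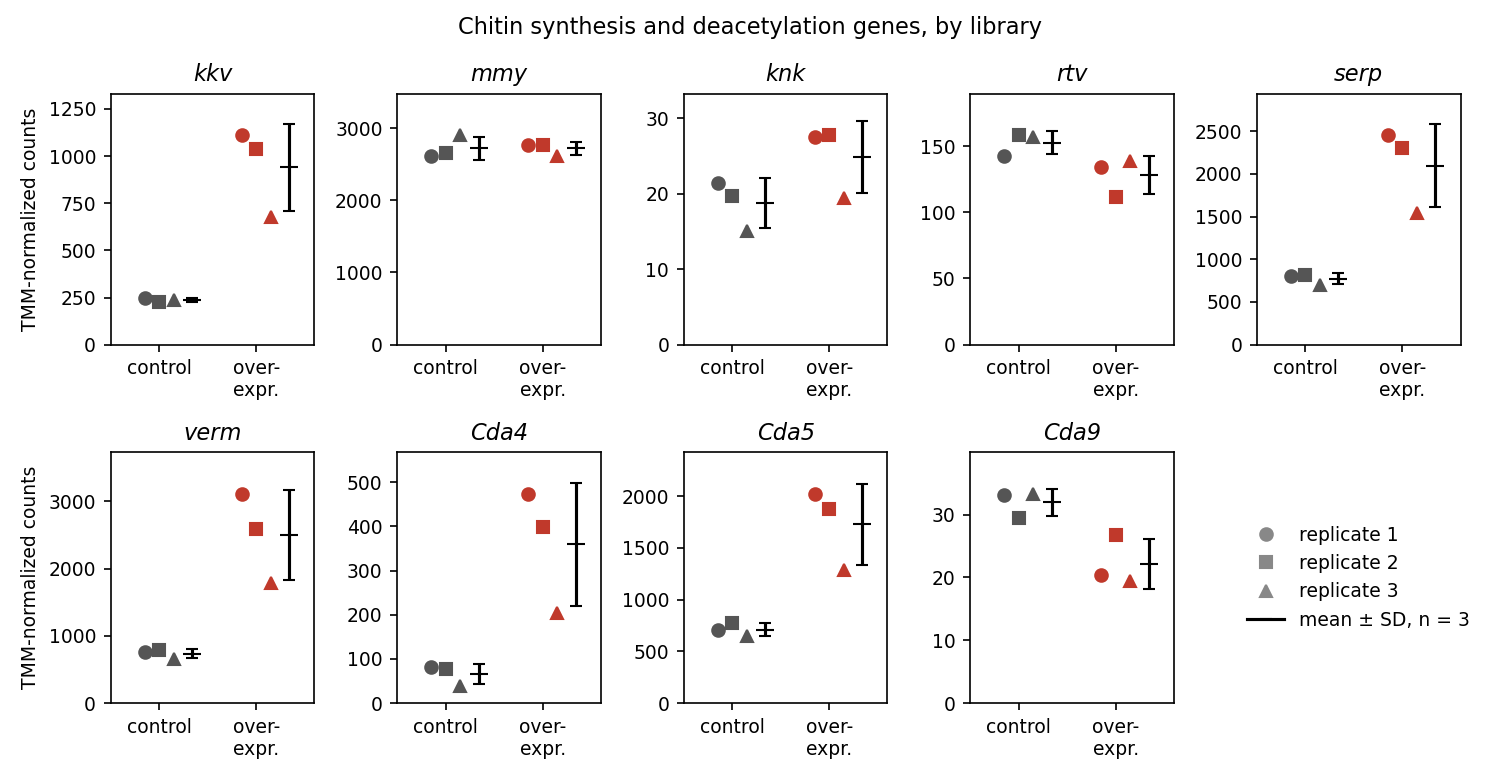
TMM-normalized counts of each gene (y axis, linear from 0, a separate scale for each panel) in the 3 control and 3 CR11538-overexpressing libraries, with the marker shape giving the replicate number and bars the mean ± SD (n = 3). For kkv, serp, verm, Cda4 and Cda5 all 3 CR11538-overexpressing libraries lie above all 3 controls, as in 21.8% of all tested genes. Replicate 3 is the lowest of the 3 in these panels, while the mmy panel shows the genotypes intermixed.

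kkv (krotzkopf verkehrt) encodes the chitin synthase of epidermis, tracheae, foregut and hindgut. It had 247, 225 and 236 normalized counts in control replicates 1, 2 and 3, and 1109.8, 1037 and 678 in CR11538-overexpressing replicates 1, 2 and 3. The controls lay close together and far below every CR11538-overexpressing library, and the lowest of these was still 2.75 times the highest control. kkv rose by 1.995 on the log2 scale (standard error 0.17, adjusted p = 7.69e-05 by edgeR), a fold of 3.99 with a 95% interval of 3.06 to 5.19. The gene (FBgn0001311) occupies 5378093 to 5392866 of chromosome 3R in dm6 (minus strand), with 3 annotated transcripts. CG14668, which lies within its span on the same strand and shares no exon with it, differed by a log2 of 0.06 (adjusted p = 0.610). The flanking genes 7B2 and CG1172, 118 and 1056 bp away, did not pass either, with log2 fold changes of -0.14 and 0.05.

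The second chitin synthase gene of the fly, Chs2, serves the midgut peritrophic matrix, and it went the other way. Chs2 had 1014, 883 and 832 normalized counts in the controls and 759.6, 736 and 643 in the CR11538-overexpressing flies, with no overlap. It fell by 0.35 on the log2 scale (standard error 0.09, adjusted p = 0.0198), a call lost on leaving out control replicate 1 (adjusted p = 0.0796) or 2 (adjusted p = 0.0531). The ratio of kkv to Chs2 counts within a library does not depend on how libraries are scaled. It was 0.243, 0.255 and 0.284 in the controls and 1.46, 1.41 and 1.05 in the CR11538-overexpressing flies. The mean log2 ratio was thus 2.32 higher in the latter, larger than the SD of 0.11 among controls and 0.26 among CR11538-overexpressing libraries. The exact two-sided permutation test over the 20 labelings gave p = 0.1, the smallest that 3 against 3 can give (adjusted p = 0.1 over 3 pairs of genes).

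mmy (mummy) encodes the UDP-N-acetylglucosamine pyrophosphorylase, which makes the substrate of the chitin synthases and also feeds glycosylation and glycolipid synthesis. It had 2613, 2648 and 2899 normalized counts in the controls and 2771, 2764 and 2618 in the CR11538-overexpressing flies. The genotypes overlapped fully, and the means, 2720.2 ± 156 and 2718 ± 86.2 (SD, n = 3), differed by less than the spread between replicates. Its fold of 0.999 had a 95% interval of 0.903 to 1.11 (adjusted p = 0.991), so a change of 2-fold in either direction lies outside it. The ratio of kkv to mmy counts rose from 0.0944, 0.0849 and 0.0815 to 0.400, 0.375 and 0.259, a difference of 1.97 in mean log2 ratio (exact permutation p = 0.1, adjusted p = 0.1). mmy lies on chromosome 2L from 6468538 to 6473904 and overlaps no annotated gene.

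**Figure D2:**
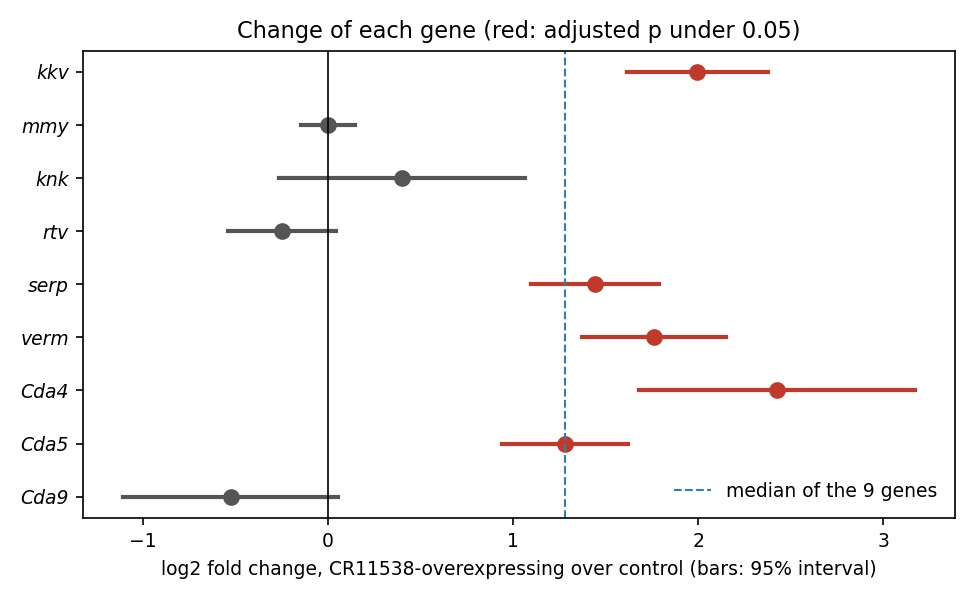
Log2 fold change of each gene in CR11538-overexpressing over control flies (x axis; points, edgeR estimates; bars, 95% intervals; red, adjusted p under 0.05). The intervals of kkv, serp, verm, Cda4 and Cda5 lie wholly above 0, those of mmy, knk, rtv and Cda9 cross it, and mmy has the narrowest.

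Other enzymes that lead to UDP-N-acetylglucosamine changed in both directions and by little compared with kkv. Of 9 tested genes on this route and its sugar supply, mmy included, 4 rose, 2 fell and 3 missed the threshold, with a median log2 fold change of 0.08. Gfat2, an aminotransferase at the entry of the hexosamine pathway, had 933, 949 and 916 normalized counts in the controls and 1125, 1139 and 1117 in the CR11538-overexpressing flies (log2 fold change 0.27, adjusted p = 0.00689). Gfat1, also on this list, was not matched to the counts. Gnpnat, the acetyltransferase of the following step, stood at -0.32 on the log2 scale (adjusted p = 0.0619). nst (nesthocker), the phosphoacetylglucosamine mutase just upstream of mmy, fell from 922, 986 and 943 to 537, 568 and 563 normalized counts, by 0.77 on the log2 scale (standard error 0.07, adjusted p = 7.69e-05). The nst libraries of each genotype lay within a narrow band, and the bands were far apart. Among genes that supply sugar, trehalase (Treh) and Pgi rose by 0.44 and 0.49 and the hexokinase gene Hex-C fell by 0.80. UGP, which makes UDP-glucose for glycogen and trehalose and does not itself feed chitin, rose by 0.86 and is among the 4 counted above.

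knk (knickkopf) and rtv (retroactive) encode membrane-anchored proteins needed to order chitin outside the cell. In the beetle Tribolium, Knickkopf protects new chitin from chitinases and Retroactive is needed for Knickkopf to reach the cell surface. knk was the least counted of the 9, with raw counts of 22, 20 and 14 in the controls and 27, 28 and 20 in the CR11538-overexpressing flies. The lowest CR11538-overexpressing library fell among the controls. Its fold of 1.32 had a 95% interval of 0.833 to 2.09 (adjusted p = 0.342), and the summed counts, 75 against 56, alone allow 0.920 to 1.90 (exact binomial interval, counting error only). Over 1712 of its 2674 exonic bp knk lies opposite asRNA:CR46038, which has 0 counts in all 6 libraries. Whether reads of the shared stretch were counted for either gene depends on the strand setting of the counting, which is not given in the sources used here.
rtv had 142, 158 and 157 normalized counts in the controls and 134, 112 and 138 in the CR11538-overexpressing flies. All 3 of the latter lay below all 3 controls, as was the case for 23.3% of all tested genes, and the gap between 138 and 142 was narrow. The log2 difference was -0.25 (standard error 0.13, adjusted p = 0.184), with a 95% interval of -0.54 to 0.04. The summed counts, 388 against 453, gave a ratio of 0.842 with an exact interval of 0.734 to 0.967 from counting error alone, which leaves out the spread between replicates. rtv, on the X chromosome from 11152484 to 11153990, shares 109 exonic bp with Lint-1 on the opposite strand, which came out at -0.19 on the log2 scale (adjusted p = 0.116).

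Among the other genes of chitin assembly, 5 rose. exp (expansion) and reb (rebuff) encode related proteins that the chitin synthase Kkv needs to deposit chitin in embryonic tracheae and epidermis. exp rose from 50.7, 29.5 and 45.1 to 400.1, 291 and 204 normalized counts, or by 2.83 in log2 (standard error 0.28, adjusted p = 0.000157). reb rose from 25.4, 27.5 and 29.0 to 159, 93.1 and 63.9 normalized counts, or by 1.94 in log2 (standard error 0.34, adjusted p = 0.00294). Both genes had no overlap between the genotypes, and both were highest in CR11538-overexpressing replicate 1 and lowest in replicate 3. Gasp, a chitin-binding protein of the tracheal lumen and cuticle, rose by 1.56, and dyl (dusky-like) and dpy (dumpy), zona pellucida domain proteins of the apical matrix, rose by 2.39 and 0.49. The chitin-binding protein gene obst-A had a log2 fold change of 0.56 and pio, another zona pellucida gene, of 0.31, and neither passed (adjusted p = 0.0645 and 0.0584). Of the 11 tested genes of chitin synthesis and assembly, kkv, knk and rtv included, 6 rose, 1 fell and 4 missed the threshold.

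serp (serpentine) and verm (vermiform) encode secreted chitin deacetylases with a chitin-binding domain, which in the embryo limit the length of tracheal tubes. serp had 804, 813 and 697 normalized counts in control replicates 1, 2 and 3, and 2453, 2299 and 1544.5 in the CR11538-overexpressing replicates. The groups were well apart, the lowest CR11538-overexpressing library being 1.90 times the highest control. The log2 fold change of serp was 1.44 (standard error 0.15, adjusted p = 0.000232), a fold of 2.72 with a 95% interval of 2.14 to 3.46. verm had 759, 791 and 660.3 normalized counts in the controls and 3112, 2594 and 1793 in the CR11538-overexpressing flies, again without overlap. Its log2 fold change was 1.76 (standard error 0.17, adjusted p = 0.000160), with a 95% interval of the fold from 2.59 to 4.44.
These 2 genes are neighbours on chromosome 3L, both on the minus strand, verm from 19690033 to 19695260 and serp from 19700977 to 19708015, with 5716 bp and 0 annotated genes between them. They were also counted in nearly equal numbers in the controls. The ratio of verm to serp counts was 0.943, 0.972 and 0.948 in the controls and 1.27, 1.13 and 1.16 in the CR11538-overexpressing flies. verm was below serp in every control and above it in every CR11538-overexpressing library. The mean log2 ratio differed by 0.31, more than the SD of 0.02 among controls and 0.09 among CR11538-overexpressing libraries (exact permutation p = 0.1, the smallest possible, adjusted p = 0.1). Of the genes flanking the pair, Gbeta76C, 41 bp from verm on the plus strand, rose by 0.23 (adjusted p = 0.0304), and Trpml on the other side had 1 count in the 6 libraries together.

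Cda4 and Cda5 encode chitin deacetylases of other subgroups of the family, and less is known of them in the fly. Cda4 had the largest fold change of the 9. It had 81.9, 76.6 and 39.7 normalized counts in the controls and 473, 399 and 204 in the CR11538-overexpressing flies. Replicate 3 was the lowest library in both genotypes, at 53.2% below the mean of replicates 1 and 2 in the CR11538-overexpressing flies. The log2 fold change was 2.43 (standard error 0.33, adjusted p = 0.000888), and its 95% interval ran from 1.68 to 3.17, the widest of the 5 genes that rose. Cda4 spans 49077 bp of the X chromosome (22583634 to 22632710), and its exons sum to 1934 bp.
Cda5 had 709.8, 774 and 645 normalized counts in the controls and 2021, 1873 and 1283 in the CR11538-overexpressing flies. The lowest CR11538-overexpressing library was 1.66 times the highest control. The log2 fold change was 1.28 (standard error 0.15, adjusted p = 0.000416), the smallest among the genes that rose, with a 95% interval of 0.94 to 1.62. Cda5 lies near the left end of chromosome 2L (25402 to 65404, minus strand) and has 8 annotated transcripts, which gene counts do not tell apart. Its neighbour dbr, 1078 bp away, differed by a log2 of -0.16 (adjusted p = 0.283).
Cda9 encodes a deacetylase-like protein of a further subgroup, whose members in Tribolium are expressed in the gut. Its raw counts were 34, 30 and 31 in the controls and 20, 27 and 20 in the CR11538-overexpressing flies. All 3 of the latter were below all 3 controls, as in 23.3% of tested genes, and the log2 difference of -0.53 (standard error 0.26) did not pass (adjusted p = 0.157, 95% interval -1.11 to 0.06). From counting error alone the ratio of summed counts, 67 against 95, was 0.694 with an exact interval of 0.4997 to 0.958, so this interval lay below 1 while that of the replicate fit did not. Cda9 (chromosome 2R, 17128480 to 17130334) was thus at the other side of 0 from the 4 deacetylase genes that rose. The remaining deacetylase gene of the family that was counted, ChLD3, had 39.0, 54.0 and 38.7 normalized counts in the controls and 49.9, 68.3 and 58.1 in the CR11538-overexpressing flies (log2 fold change 0.42, adjusted p = 0.192), and its genotypes overlapped.

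Levels per exon length put these changes on a common scale. They are given as RPKM, reads per kilobase of exon at a common library size, here the TMM-scaled one. In the controls mmy stood first, at 66.1 ± 3.79 RPKM (SD, n = 3), followed by verm (16.6 ± 1.53) and serp (16.2 ± 1.36), whose libraries overlapped. rtv (6.38 ± 0.366) and Cda5 (3.51 ± 0.317) came next, then kkv (2.21 ± 0.102) and Cda4 (1.82 ± 0.633), which overlapped, and Cda9 (1.04 ± 0.0707) and knk (0.373 ± 0.0660) were lowest. In the CR11538-overexpressing flies verm (56.3 ± 14.96) and serp (44.0 ± 10.2) stood nearer to mmy (66.0 ± 2.09), with overlapping libraries between mmy and verm and between verm and serp, but not between mmy and serp. Cda4 (9.90 ± 3.83), kkv (8.81 ± 2.16) and Cda5 (8.53 ± 1.93) were not separable in that group, and their means stood above that of rtv (5.37 ± 0.600), which had been above all 3 in the controls. The lowest Cda4 library (5.63) lay below the highest rtv library (5.80), while kkv and Cda5 had no overlap with rtv. The exon length joins all annotated transcripts of a gene, 10793 bp for Cda5 against 1934 bp for Cda4, so the level of a gene with long alternative exons is understated.

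**Figure D3:**
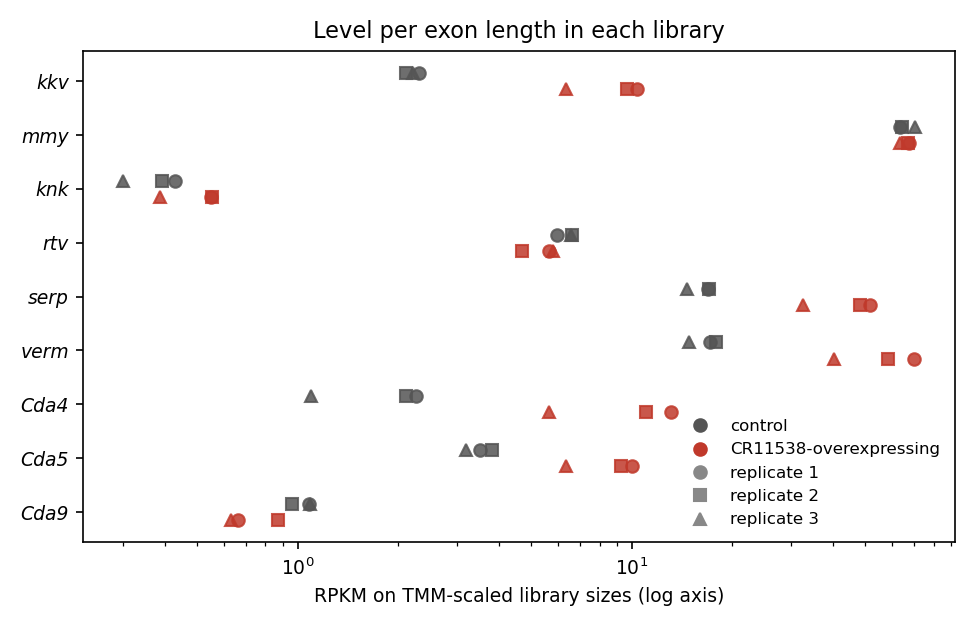
RPKM on TMM-scaled library sizes (x axis, log scale) of each gene in each library, control in grey and CR11538-overexpressing in red, with the marker shape giving the replicate number. mmy stays near 66 RPKM in both genotypes while serp and verm move from about 16 RPKM to between 32.4 and 70.1 RPKM, and knk is lowest throughout.

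The 5 genes that rose also shared their order among the CR11538-overexpressing libraries. In all 5, replicate 1 was highest and replicate 3 lowest, where 32.7% of the 1974 genes called higher had this order. Across genes in general, the CR11538-overexpressing libraries also differed more from each other than the controls did. Chi-square per gene between pairs of libraries was 12.4 to 33.9 against 6.67 to 7.54, and largest for CR11538-overexpressing replicates 1 and 3. Replicate 3 was 34.1% (Cda5) to 53.2% (Cda4) below the mean of replicates 1 and 2, and every one of the 5 genes was still at least 1.66 times its highest control there. mmy had the same order with replicate 3 only 5.39% below the mean of replicates 1 and 2, while rtv was highest in replicate 3, and knk and Cda9 were highest in replicate 2 and lowest in replicate 3. Among related genes that rose, Gfat2, dyl, the chitinase genes Cht4, Cht5 and Cht12, the junction genes kune and bark, and CG34355 did not have this order. lncRNA-CR11538 did not follow this order, since replicate 1 had the fewest counts of it (2291). Without CR11538-overexpressing replicate 3, the same 5 genes passed, with log2 fold changes of 1.45 (Cda5) to 2.71 (Cda4).

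**Figure D4:**
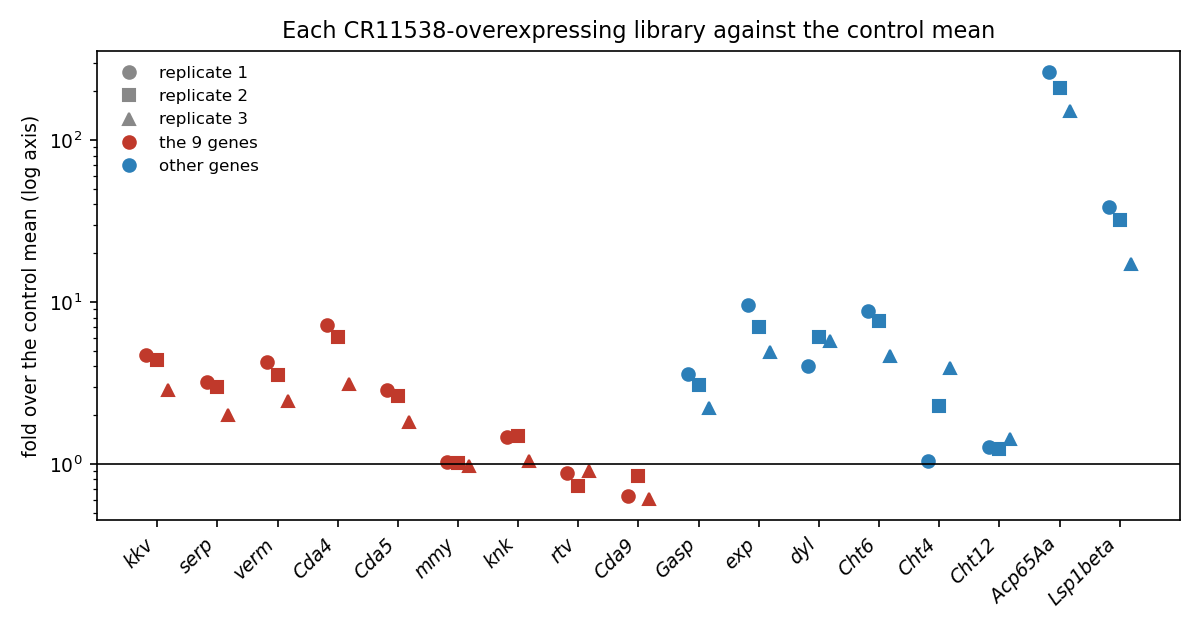
Fold of each CR11538-overexpressing library over the control mean (y axis, log scale) for the 9 genes (red) and for the chitin-related genes Gasp, exp, dyl, Cht6, Cht4 and Cht12, the adult cuticle gene Acp65Aa and the larval serum gene Lsp1beta (blue), with the marker shape giving the replicate number. The line marks a fold of 1. Replicate 1 is highest and replicate 3 lowest in kkv, serp, verm, Cda4, Cda5 and mmy, but not in knk, rtv and Cda9, nor in dyl, Cht4 and Cht12.

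Markers of cuticle secretion and of larval tissue moved in the same libraries. Of 12 tested markers of cuticle secretion and tanning, 9 were higher and 0 were lower. Acp65Aa, an adult cuticle protein gene active around eclosion, had 55.6, 31.4 and 12.9 normalized counts in the controls and 8727, 6940.2 and 5053 in the CR11538-overexpressing flies. Acp1 and Cpr92F, also cuticle protein genes, rose by log2 fold changes of 4.77 and 6.03, and yellow (y) by 3.78. Cpr49Ah rose by 7.64 from raw counts of 0, 0 and 2 in the controls. The tanning genes ple, Ddc, e and b rose by less, by 0.79, 0.58, 0.97 and 0.39, and Ddc overlapped between the genotypes. resilin, Cpr56F and TwdlT did not pass, and the median log2 fold change of the list was 0.88. The summed level of the 13 counted cuticle markers was 5307 to 5969 normalized counts in the controls and 19726 to 33299 in the CR11538-overexpressing flies. Acp65Aa, Acp1 and Cpr92F made up most of the sum in the CR11538-overexpressing flies. The larval serum protein genes Lsp1alpha, Lsp1beta, Lsp1gamma and Lsp2 were all higher, and the 6 larval markers summed to 151 to 347 against 2546 to 5550.0 normalized counts. Of the larval salivary glue genes, Sgs4 was at 0 in every library and Sgs3 had at most 1 raw count in any. The sum is therefore that of the 4 serum protein genes, and in the CR11538-overexpressing flies it was mostly Lsp1beta. Replicate 3 was lowest of the CR11538-overexpressing libraries for 7 of the 9 cuticle markers that rose and for all 4 larval serum genes. The part of these tissues, or of the physiological age of the flies, in the rise of the chitin genes was not tested.
Tracheal markers did not move as a group. Of 6 tested, 1 was higher (uif, log2 fold change 1.25), 2 were lower (trh, -0.34, and vvl, -0.25) and 3 did not pass. The summed level overlapped between the genotypes (9973 to 10540 against 9833 to 11012 normalized counts), and emp alone made up most of it. trh and vvl did not pass with DESeq2 (adjusted p = 0.102 and 0.0586), nor without most of the libraries in turn. Of 5 tested fat body markers 3 were higher (Lsd-1, Fbp1 and apolpp), and the sum over the list ran from 27622 to 36358 in the controls and from 37532 to 69706 in the CR11538-overexpressing flies. apolpp made up most of that sum, its genotypes overlapped, and its call was lost with DESeq2 (adjusted p = 0.0570) and on leaving out control replicate 2 (0.118) or 3 (0.0992) or CR11538-overexpressing replicate 2 (0.0719). Of 5 haemocyte markers 3 were higher (Pxn, Hml and NimC1) and 0 lower, with sums of 8055 to 8414 against 9908 to 11401, mostly Hml. Gut and peritrophic markers had 3 of 5 higher (Peritrophin-15a, Peritrophin-A and betaTry) and Muc68D lower. Their sums were 23053 to 28150 against 28848 to 33105, mostly betaTry, and Peritrophin-15b was at 0 in every library. The Muc68D call was lost on leaving out control replicate 1 (adjusted p = 0.0704) or 2 (0.0778). Of 3 tested female markers only Yp3 passed, and it was lower (log2 fold change -2.12). The sums over the list, 1163 to 1240.3 against 282 to 391 normalized counts, were mostly Yp3. Cp15 and otu did not pass, with log2 fold changes of 0.40 and 0.07, and Yp1, Yp2 and Vm26Aa had too few counts to be tested. Of 8 male and testis markers 4 were higher (betaTub85D by 0.42, Acp36DE by 0.35, Mst98Ca by 0.26 and Mst98Cb by 0.24 on the log2 scale) and lncRNA:roX1 fell by 0.30, with sums of 53607 to 58311 against 62570.3 to 68881 that did not overlap. The calls of Acp36DE, Mst98Ca and lncRNA:roX1 were each lost on leaving out some single library (adjusted p up to 0.107).

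Chitin breakdown, the counterpart of synthesis, rose in part. Of 13 tested chitinase and hexosaminidase genes, 6 rose, 0 fell and 7 missed the threshold, with a median log2 fold change of 0.39. The chitinase genes Cht6 and Cht7 rose from 105, 86.4 and 99.9 to 855, 736 and 447 and from 243, 233 and 198 to 1358, 1078 and 628 normalized counts, with log2 fold changes of 2.80 and 2.18. Like kkv they had no overlap and were lowest in CR11538-overexpressing replicate 3, which held for 3 of the 6 breakdown genes that rose. Cht4 had 247, 239.6 and 225 normalized counts in the controls and 246, 541 and 931 in the CR11538-overexpressing flies, so that it overlapped and was highest in replicate 3 (log2 fold change 1.27, adjusted p = 0.0291). Cht2 and Cht12 rose by 1.22 and 0.39, and Cht12 missed the threshold when control replicate 1 (adjusted p = 0.0552) or control replicate 2 (0.0579) was left out. Without control replicate 1 the list had 3 higher in place of 6. Without control replicate 2 or 3 or CR11538-overexpressing replicate 2 it had 4, and in the other alternatives 6 to 8. Cht2, Cht6 and Cht7 passed in all 12 alternatives, so without control replicate 1 the calls of Cht4 and Cht5 were lost too. The hexosaminidase genes Hexo1 and Hexo2 and fdl, whose enzyme trims N-glycans, did not pass, with log2 fold changes of 0.02, 0.27 and 0.17.
Septate junctions seal the epithelia, and in embryonic tracheae they are needed for Serp and Verm to reach the lumen. Of 15 tested genes of these junctions and of apical secretion, 3 rose, 2 fell and 10 missed the threshold, with log2 fold changes between -0.33 and 0.30. These counts are near the shares over all tested genes, 15% higher and 14.2% lower. nrv2 and kune rose by 0.29 and 0.28 and pck and Cont fell by 0.33 and 0.25 on the log2 scale, and kune did not pass with library size alone as scaling (adjusted p = 0.0623), nor without control replicate 1 or 3 or CR11538-overexpressing replicate 2 or 3 (0.0537 to 0.0976). With that scaling, and without control replicate 3 or CR11538-overexpressing replicate 2 or 3, the list had 1 higher in place of 3. Transcription factors of cuticle formation and of the wounded epidermis had 0 of 10 higher. grh (grainy head), which controls cuticle genes, was at -0.17 on the log2 scale (adjusted p = 0.248), and the AP-1 subunit genes kay and Jra had -0.05 and 0.02. vri and Eip75B fell by 0.63 and 0.43. Of 4 genes listed for resemblance to Knickkopf, knk included, CG34355 rose by 0.39, Skel fell by 0.37 (adjusted p = 0.0501 on leaving out control replicate 2) and the others did not pass.

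**Figure D5:**
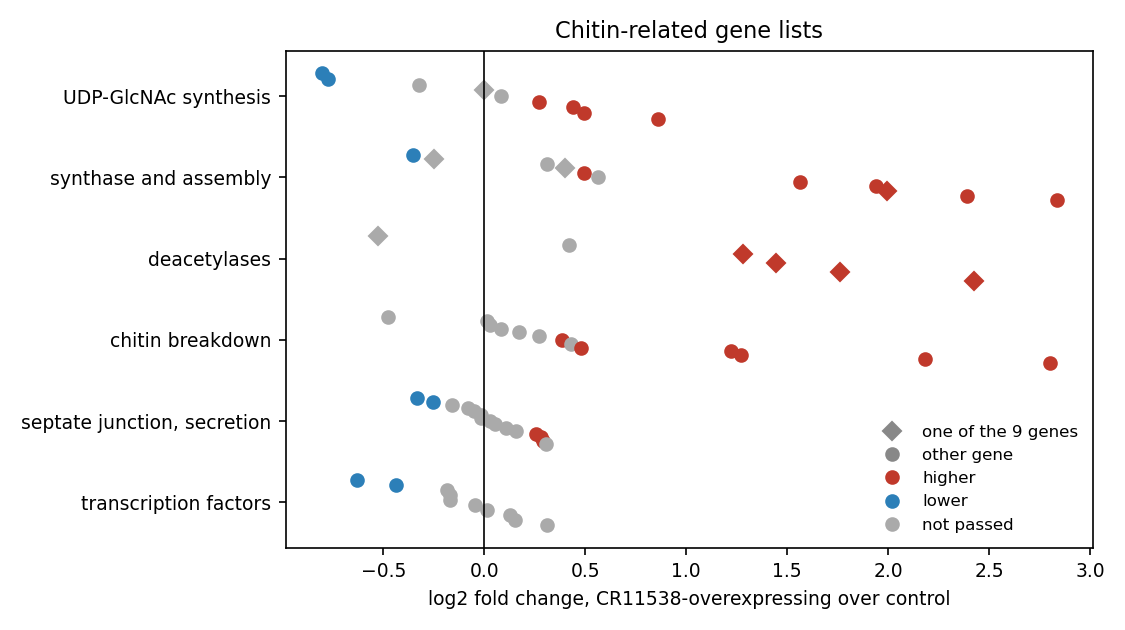
Log2 fold changes (x axis) of the tested genes of 6 chitin-related lists, with diamonds for the 9 genes, red for higher, blue for lower and grey for not passed at an adjusted p of 0.05. The rises beyond a log2 fold change of 1 lie in the lists of synthase and assembly, deacetylases and breakdown, while septate junction genes stay between -0.33 and 0.30.

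The genes whose profile over the 6 libraries lay closest to that of kkv were found by the root-mean-square distance of centred log2 values, among the 11244 genes that averaged 50 normalized counts or more. They were CG10936, CG15544, CG16786, thw and Peritrophin-A, at distances of 0.107 to 0.149 on the log2 scale. Peritrophin-A, a chitin-binding protein gene, had a log2 fold change of 2.16, and it is also among the gut and peritrophic markers counted as higher above. Of the 9 genes, verm came next in rank (6, at 0.156), and serp (44), Cda5 (77) and Cda4 (104) were also near, while mmy (4988) and rtv (9153) were not. This distance rests on 6 libraries of 2 genotypes, so any gene with a like rise in the CR11538-overexpressing flies lies near kkv.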

How the data were processed

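The values are raw counts per gene, as the authors deposited them. Per the labels they come from featureCounts 1.5.0-p3 on paired-end poly(A) reads that HISAT2 2.0.5 had placed on dm6. Neither the strand setting nor the annotation release is given in the sources used here. Symbols and positions came from Ensembl release 115 (dm6 coordinates), which held 17252 of 17558 identifiers. Genotypes came from the strain labels. Libraries held 17040432 to 19652500 counts, and a count of 0 allows a share of up to 1.53e-05 to 1.76e-05% (3 counts, counting error only).

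edgeR 4.0.16 (limma 3.58.1, R 4.3.3) with filterByExpr, TMM and the quasi-likelihood test on genotype alone was fitted to all 13159 genes kept, where the study used DESeq2, and p-values were Benjamini-Hochberg adjusted over all of them. Standard errors divide the unshrunk coefficient by the square root of F, and 95% intervals use the t quantile of the fit. Ratios of gene pairs were tested by exact permutation. The alternatives were DESeq2 1.42.0, its size factors, library size alone, no filter, a minimum of 10 counts per library, a replicate block and each library left out. Tables were made with Python 3.11.15 (scipy 1.17.1, numpy 2.4.6 and pandas 2.3.3), plots with matplotlib 3.10.9.

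The 9 genes and the 15 lists were chosen with earlier results of these data known. The text names the 9 genes, lncRNA-CR11538, up to 4 genes a list with the lowest adjusted p among those that passed, and the 5 nearest to kkv. Other list members, neighbours and overlapping genes were named after their values were seen. In these lists 4 genes (Gfat1, stw, btl and FASN1) were not matched to the counts and are not analysed here.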

Additional observations from a re-analysis of the deposited data

How the results depend on the processing

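In each of the 12 alternatives 5 of the 9 genes were higher and 0 were lower. The log2 fold changes ranged from 1.86 to 2.18 for kkv, 1.32 to 1.62 for serp, 1.58 to 1.95 for verm, 2.18 to 2.71 for Cda4 and 1.15 to 1.45 for Cda5, with adjusted p of at most 0.00795 from edgeR or DESeq2. knk (0.27 to 0.55), rtv (-0.31 to -0.16) and Cda9 (-0.68 to -0.44) did not pass in any of them. The estimate of mmy lay on either side of 0 without passing: 0.0038 with DESeq2, 0.00664 with DESeq2 size factors, 0.00555 with at least 10 counts in every library, and -0.0308 to 0.0494 with a library left out. Over all genes, the deviations of same-numbered libraries were weakly correlated (0.127, 0.0349 and 0.0709). For serp, verm, Cda4, Cda5 and knk, however, replicate 3 was the lowest library in both genotypes. The replicate block lowered the standard errors of the 5 genes that rose, for Cda4 from 0.33 to 0.12. It raised those of mmy, knk, rtv and Cda9. With the block, 5 of the 9 genes were higher and 0 lower. With a library left out, the shift in mean log2 ratio was 0.26 to 0.35 for verm to serp, 1.84 to 2.16 for kkv to mmy and 2.23 to 2.46 for kkv to Chs2. Among the 58 other genes tested in the chitin, junction and transcription factor lists, 14 to 22 were higher and 6 to 9 lower. Over all genes, 1255 and 1193 were higher without control replicates 1 and 2, against 1974 with all libraries, and 1146 were lower without control replicate 2, against 1870. knk and Cda9 had at most 34 counts in any library, the fewest of the 9 genes.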
